A study of Homo sapiens with 4 samples.

Results

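The open chromatin around 10 human genes of cell cycle control and telomerase was compared between 2 groups of BJ cells. The first expressed KLF4 alone, and the second expressed ΔNp63α together with KLF4. The genes were the inhibitors CDKN2A, CDKN2B, CDKN2C, CDKN1B and CDKN1C, the cyclins CCND1, CCND2 and CCNE1, the pocket protein gene RB1 and the telomerase gene TERT. A peak was counted for a gene when its summit lay in the gene body or no more than 50 kb from an annotated start of transcription (TSS). By this rule, 75 of the 101142 peaks in the list of the KLF4 cells and 83 of the 109486 peaks in the list of the p63 cells were found at the 10 genes. Peaks whose −log10 q reached 10 are called regions here, and 40 of 56680 and 44 of 62343 regions lay at these genes.

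Accessibility was measured by ATAC-seq, which sequences the DNA that a transposase can reach and tag. BJ is an established line of human fibroblasts. The CTR group held 2 samples of cells with inducible KLF4, and the p63 group held 2 samples of cells with inducible ΔNp63α and KLF4. In both groups the transcription factors were delivered by retrovirus, were switched on with doxycycline through a reverse tetracycline-controlled transactivator and were carried in polyclonal lines, and each replicate was a new induction of the same lines. All cells compared here therefore carried KLF4. The authors deposited 1 peak list per group, so no value per replicate can be given, no test was run, and the intervals below cover counting error only. More open cells and more signal per cell cannot be told apart in such bulk samples.

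As background, D-type cyclins with CDK4 or CDK6, and cyclin E with CDK2, phosphorylate the retinoblastoma protein RB1, which releases E2F transcription factors and lets cells enter S phase. The INK4 inhibitors block CDK4 and CDK6, and the CIP/KIP inhibitors bind a wider range of cyclin-CDK complexes. In fibroblasts the INK4 locus is known for its part in senescence, and TERT, the catalytic subunit of telomerase, is silent in most somatic cells. ΔNp63α is the p63 isoform of basal keratinocytes, and it binds the same family of sites as p53.

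The general values of the 2 lists were close. The median pileup at the summit of a region, which is the number of reads stacked there as recovered from the peak caller's scores, was 33 reads in each list, and the lowest of any region was 15 reads. Deposited peaks below the threshold went down to 6 reads. The background coverage recovered in the same way had a p63/CTR ratio of 0.958. Of 12 fibroblast markers, 8 were open at the TSS for CTR and 7 for p63, the difference being COL6A3. COL1A1, COL3A1, PDGFRA and DCN were open at the TSS in neither list. None of 10 keratinocyte markers was open at its TSS in either list. Of 7 markers of other cell types, MITF alone was open in each list.

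The sequences that the results below turn on are given as 101 bp of GRCh38 around the summit, plus strand, 5′ to 3′. The first 2 come from regions found in 1 list alone, with the match to the CTCF motif in capitals, from chr11:69670334-69670434 and chr12:4277094-4277194.

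CCND1 CTR-only: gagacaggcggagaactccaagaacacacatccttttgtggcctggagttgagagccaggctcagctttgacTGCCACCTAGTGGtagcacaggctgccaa

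CCND2 p63-only: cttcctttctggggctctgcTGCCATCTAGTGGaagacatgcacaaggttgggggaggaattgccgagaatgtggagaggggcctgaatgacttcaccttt

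The next 2 come from the region beyond CDKN1C with the highest p63/CTR pileup ratio, with both AP-1 matches in capitals, at chr11:2912693-2912793, and from the region beyond TERT that had no CTR peak at all, in which none of the motifs was matched, at chr5:1239586-1239686.

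CDKN1C p63-only: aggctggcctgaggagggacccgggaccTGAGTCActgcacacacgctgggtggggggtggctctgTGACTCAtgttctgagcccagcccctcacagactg

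TERT p63-only: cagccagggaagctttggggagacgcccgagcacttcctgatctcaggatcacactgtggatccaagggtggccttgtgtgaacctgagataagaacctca

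The 3 p63 sites found near a summit of the p63 list are shown in capitals, at chr12:12717119-12717219 (CDKN1B start), chr13:48579180-48579280 (RB1 intron) and chr9:22037331-22037431 (CDKN2B-AS1). The label RB1 intron refers to the annotated span of the gene, and this summit lay 275479 bp from the canonical RB1 start.

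CDKN1B start: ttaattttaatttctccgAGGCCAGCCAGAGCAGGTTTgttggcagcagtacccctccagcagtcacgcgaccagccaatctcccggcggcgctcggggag

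RB1 intron: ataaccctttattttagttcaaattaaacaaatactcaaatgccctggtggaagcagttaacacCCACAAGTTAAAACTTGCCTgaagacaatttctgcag

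CDKN2B-AS1: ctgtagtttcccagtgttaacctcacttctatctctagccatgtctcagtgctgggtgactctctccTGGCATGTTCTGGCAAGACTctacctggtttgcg

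The last 2 start with the shared region of the lowest p63/CTR ratio, upstream of the canonical CDKN1B start, with its TEAD match in capitals, at chr12:12704767-12704867. The label CDKN1B intron refers to transcripts of the gene that start further upstream. They end with 3 copies of the tandem repeat that fills the shared region upstream of TERT, 87 bp at chr5:1327022-1327108, with the TEAD letters in capitals.

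CDKN1B intron: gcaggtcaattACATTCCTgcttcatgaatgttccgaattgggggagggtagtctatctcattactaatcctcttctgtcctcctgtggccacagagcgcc

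TERT upstream repeat: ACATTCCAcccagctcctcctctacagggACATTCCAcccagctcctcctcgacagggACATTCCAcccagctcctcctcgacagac

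Most of the open chromatin at the 10 genes was found in both lists. A region without an overlapping region of the other list is called CTR-only or p63-only, and the rest are called shared. At the genes 35 regions were shared, 5 were CTR-only and 9 were p63-only. Many of these regions lay closer to the start of a neighbouring gene. The nearest coding TSS belonged to 1 of the 10 genes for 19 of 40 CTR and 19 of 44 p63 regions. The same held for 2 of the 5 CTR-only and 3 of the 9 p63-only regions. The CTR-only share was 12.5% of the CTR regions (Wilson 95% interval 5.46 to 26.1), against 16.5% over all CTR regions. The p63-only share was 20.5% of the p63 regions (11.2 to 34.5), against 23.9% over all p63 regions. Both background values lay inside the interval of the genes. A list-only region lay at 5 of 10 genes in the CTR list, where 41.9% of all protein-coding genes had one, and at 6 of 10 genes in the p63 list, where 58.2% had one. CDKN2A and CDKN2B were both counted in the CTR list for the same region. Regions within reach of several genes were counted for each gene in the background as well.

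**Figure D1:**
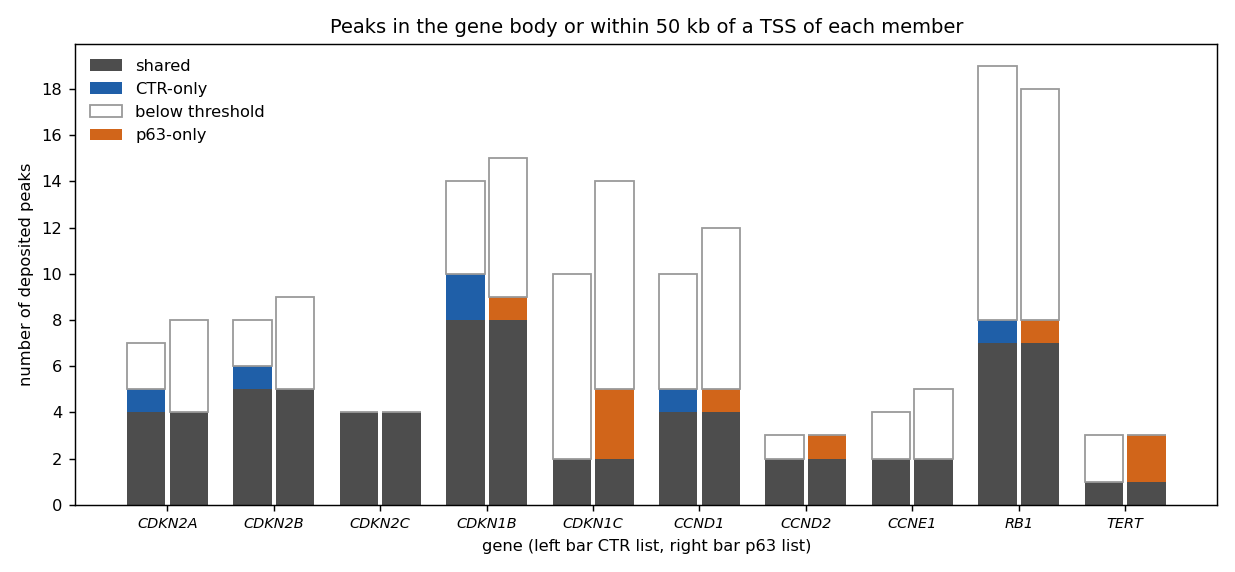
Number of deposited peaks counted for each gene, with the CTR list as the left bar and the p63 list as the right bar, split into shared, list-only and below-threshold peaks. CDKN1C held 3 p63-only regions beside 2 shared ones, while CDKN2C and CCNE1 held shared regions alone at the threshold. CDKN2A and CDKN2B are neighbours, and a peak within reach of both is drawn for both.

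A weaker peak of the other list lay under 4 of the 5 CTR-only and 8 of the 9 p63-only regions. A region that no deposited peak of the other list overlapped is called absent there, and each list held 1 such region at the genes, at CCND1 in the CTR list and at TERT in the p63 list. Over all regions, 3.29% of the CTR regions and 12% of the p63 regions were of this kind. Among CTR-only regions the absent share was 1 of 5 at the genes, 20% (3.62 to 62.4), and 20% over the whole list. Among p63-only regions it was 1 of 9 at the genes, 11.1% (1.99 to 43.5), and 50% over the whole list. The −log10 q of the list-only regions ran from 10.1 to 17.6 in the CTR list and from 10.2 to 19.7 in the p63 list, while the median of all regions at the genes was 29.4 and 30.2.

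**Figure D2:**
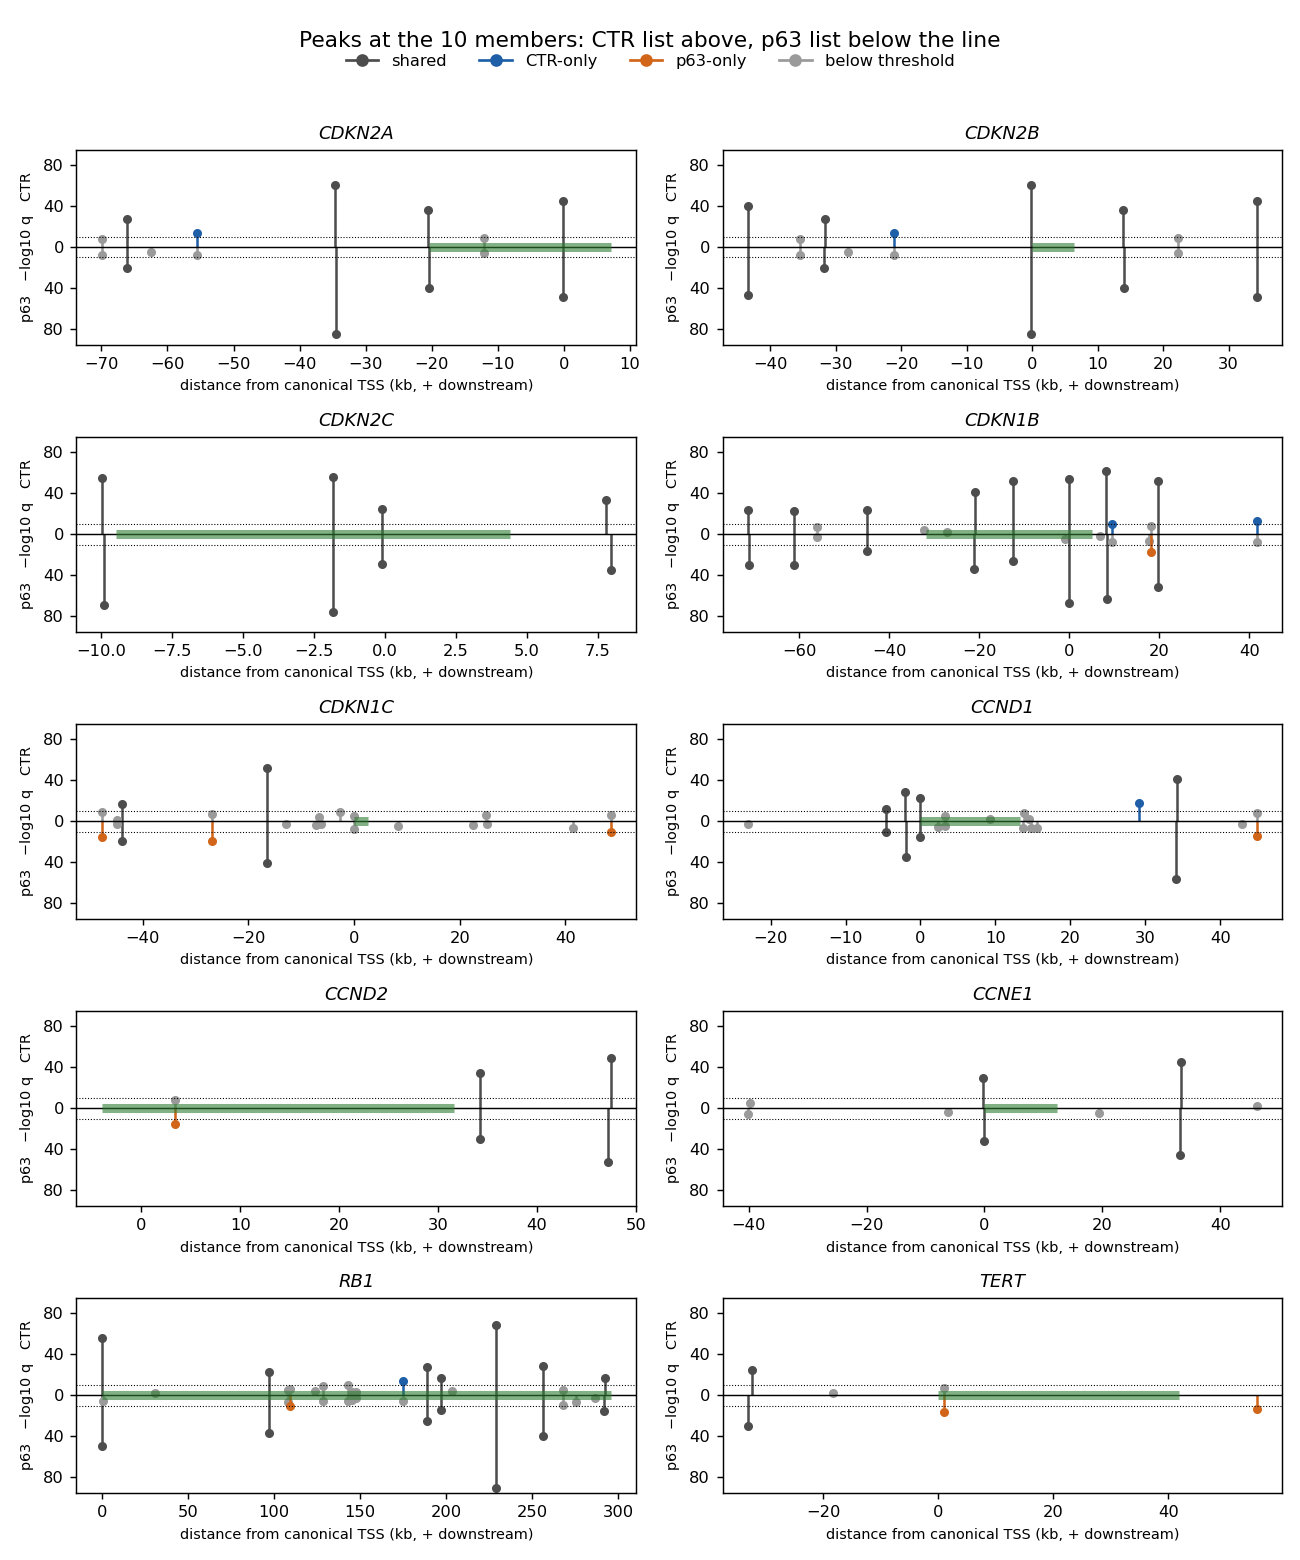
Deposited peaks by the distance of the summit from the canonical TSS in kb, with the CTR −log10 q drawn above and the p63 −log10 q below the line, the gene body in green and the threshold of 10 dotted. The high peaks sit in pairs above and below the line, and the coloured list-only peaks stay below 20.

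The INK4 genes are described first. CDKN2A (ENSG00000147889.18, chromosome 9, 21967752 to 21995301, minus strand) encodes p16INK4a and, from an upstream first exon, p14ARF. CDKN2B (ENSG00000147883.12, 22002903 to 22009305, minus strand) encodes p15INK4b. Both starts of CDKN2A and the start of CDKN2B were open in each list. The region at the canonical CDKN2A start, that of p16INK4a (21974480 to 21975629), had a fold enrichment of 11.4 for CTR and 12.5 for p63. Fold enrichment is the ratio of the summit pileup to the local background after the same small constant is added to each. The region at the p14ARF start (21994582 to 21996021) had 9.56 and 9.49. Neither start differed between the lists by more than the counting error of its pileup, with p63/CTR ratios of 1.02 (0.71 to 1.46) and 1.09 (0.75 to 1.59).

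The CDKN2B start (22008674 to 22009670) had the highest −log10 q and pileup of the INK4b-ARF-INK4a locus in both lists, though not the highest fold enrichment. Its fold enrichment was 12.1 for CTR and 14.8 for p63, with 84 and 105 reads at the summit and a −log10 q of 61.0 and 84.8. The log2 ratio of fold enrichment was 0.29, the second highest of the 35 shared pairs at the genes and at the 82.7th percentile of all shared pairs. The interval of the pileup ratio, 1.25 (0.93 to 1.69), held 1.

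The locus also held open chromatin inside CDKN2B-AS1, a long non-coding RNA gene that runs antisense to CDKN2B. A region at 22030102 to 22030561, in an exon of a non-canonical CDKN2B-AS1 transcript, was CTR-only. It had 18 reads and a fold enrichment of 8.72 in the CTR list, and 12 reads and 6.11 below the threshold in the p63 list. A shared region at 22040623 to 22041200, in a CDKN2B-AS1 intron, had the second lowest ratio of the shared pairs, with a log2 value of −0.29, from a fold enrichment of 10.6 to 8.69. The region beyond it (22052374 to 22053048) had a −log10 q of 40.1 and 46.5. The neighbours along this RNA gene thus did not move in 1 direction, and none of their pileup ratios had an interval that left out 1.

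CDKN2C (ENSG00000123080.12, chromosome 1, 50960745 to 50974634, plus strand) encodes p18INK4c. All 4 of its regions were shared, and all 4 had the higher fold enrichment in the p63 list. Over the whole lists, 58.1% of shared pairs had the higher fold enrichment there. At an upstream start (50967931 to 50969117) it was 9.18 for CTR and 11.1 for p63, with a −log10 q of 55.6 and 76.1 and a log2 ratio of 0.27. At the canonical start (50969749 to 50970290) it was 5.85 and 6.32. The region at the first CDKN2C start, which holds the FAF1 start as well (50959420 to 50960766), had 13.1 and 14.0. The fourth (50977128 to 50978681) had 10.6 and 10.8. Each pileup ratio had an interval that held 1.

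Among the CIP/KIP genes, CDKN1B and CDKN1C differed in how they were covered. CDKN1B (ENSG00000111276.12, chromosome 12, 12685498 to 12722369, plus strand) encodes p27KIP1. It had 10 regions for CTR and 9 for p63, of which 8 were shared. Its canonical start (12716679 to 12717603) was open with a fold enrichment of 10.2 for CTR and 11.6 for p63, and 84 and 96 reads. The CTR region of the gene with the highest −log10 q, 61.4 against 63.1 in the p63 list, lay close to the start of the neighbouring gene APOLD1 (12724933 to 12726043).

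The lowest p63/CTR ratio of all shared pairs at the 10 genes was found in an intron of CDKN1B (12704592 to 12704919). This region, whose summit sequence is printed above as CDKN1B intron, had 51 reads for CTR and 29 for p63. Its fold enrichment was 18.4 and 12.4, its −log10 q was 51.6 and 25.8, and its log2 ratio of −0.56 was at percentile 1.63 of all shared pairs. The pileup ratio was 0.57 (0.35 to 0.91). It was the only 1 of the 35 shared pairs with an interval below 1, and 2.05% of all shared pairs had such an interval. A further CDKN1B pair, in an intron of GPR19 (12672195 to 12672795), had the third lowest ratio, from 11.8 to 9.86, with an AP-1 match near its summit.

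**Figure D3:**
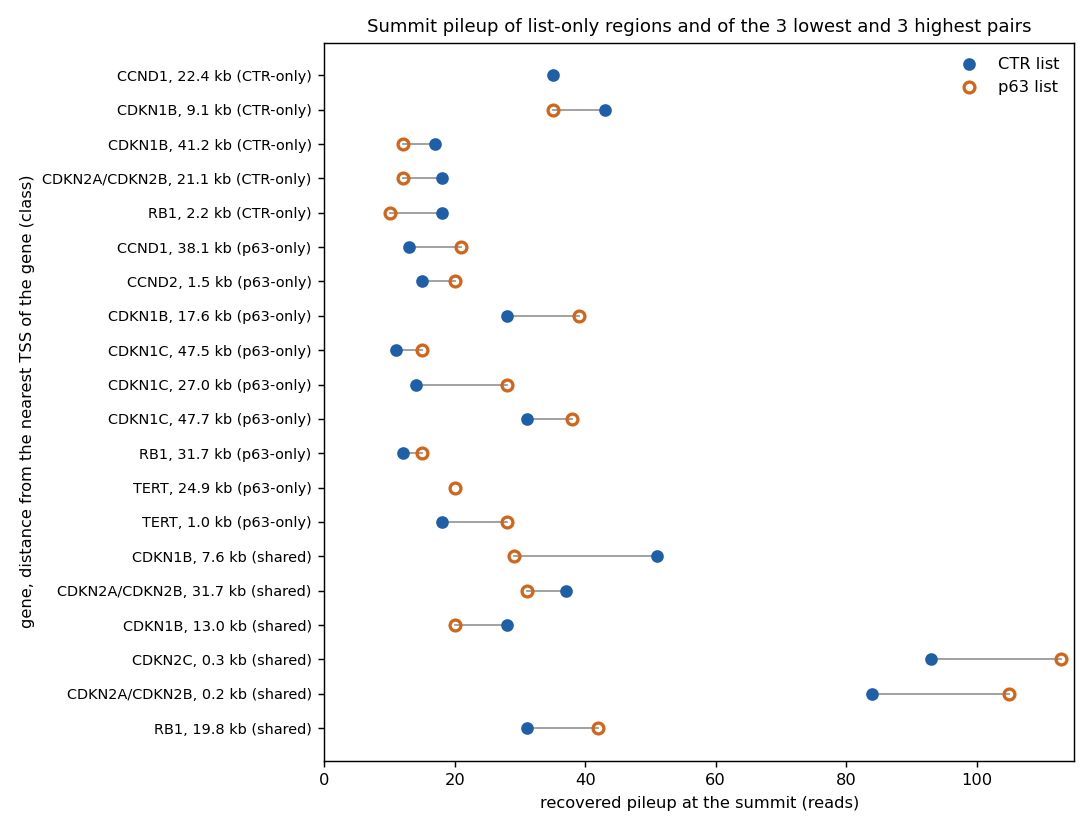
Recovered pileup at the summit, in reads, for the 14 list-only regions and the 3 shared pairs with the lowest and the 3 with the highest ratio of fold enrichment. A line joins the values of the lists, and a single point marks the regions at CCND1 and TERT that had no peak in the other list.

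All 3 list-only regions of CDKN1B lay in introns of APOLD1. The CTR-only region at 12726839 to 12726992 had the lowest −log10 q of the CTR regions at these genes, 10.1, and a fold enrichment of 3.48 against 3.28 in the p63 list. The CTR-only region at 12758901 to 12759203 had 17 reads for CTR and 12 for p63. The p63-only region at 12735343 to 12735662 had 39 reads and a fold enrichment of 5.79 in the p63 list, and 28 reads and 4.09 in the CTR list.

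CDKN1C (ENSG00000129757.15, chromosome 11, 2883213 to 2885775, minus strand) encodes p57KIP2 and lies in an imprinted region. It had no region at its own TSS in either list. A peak was present there below the threshold in both, with a −log10 q of 5.37 for CTR and 7.11 for p63. Around it the p63 list held 5 regions and the CTR list 2, and the 3 further regions were p63-only, the highest number at any of the genes. The p63-only region at 2912581 to 2913085 had 28 reads in the p63 list and 14 in the CTR list. It lay in an intron of SLC22A18, 3403 bp from a start of that gene and 26968 bp from the nearest CDKN1C TSS. Among the 12 list-only regions with a weaker partner it was the only 1 whose pileup ratio had an interval (1.02 to 4.11) that left out 1. The scores of these same peaks made the region p63-only, so the interval is no separate evidence of a difference. The share of such intervals over all list-only regions with a weaker partner was not computed. The summit window of this region is printed above with 2 AP-1 matches, 19 bp to either side of the summit.

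The other p63-only regions of CDKN1C were at the limits of the rule. The region at 2836932 to 2837316, in an intron of KCNQ1, had 15 reads against 11 and a −log10 q of 10.2, the value just inside the threshold in the p63 list. The region at 2932998 to 2933672 lay between genes, 4087 bp from a PHLDA2 start, with 38 reads against 31. Its distance of 47732 bp from a CDKN1C TSS was the largest of those up to 50 kb in the p63 list. The region of CDKN1C with the highest −log10 q (2901948 to 2902868) lay at the SLC22A18 start and had 72 reads for CTR and 52 for p63, although its fold enrichment was 11.9 and 12.6.

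The D-type cyclins differed from each other at their starts. CCND1 (ENSG00000110092.4, chromosome 11, 69641156 to 69654474, plus strand) encodes cyclin D1. Its start (69640659 to 69641238) was open with a fold enrichment of 5.04 and 61 reads in the CTR list, and 4.24 and 51 reads in the p63 list. This log2 ratio of −0.25 was the lowest of the regions at a canonical start of the genes, and the interval of the pileup ratio, 0.84 (0.56 to 1.23), held 1. A region just upstream (69638746 to 69639438) had 6.18 and 6.87, and a weaker one (69636428 to 69636701) had 4.28 and 4.16.

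Beyond the 3′ end of CCND1, in an intron of LTO1, lay the 1 CTR region at these genes that had no peak in the p63 list. It spanned 69670225 to 69670479, 22427 bp from the nearest CCND1 TSS, with 35 reads, a −log10 q of 17.6 and a fold enrichment of 6.61. Its summit sequence, printed above, held a CTCF match without a mismatch. The next region, at the LTO1 start (69674429 to 69675692), had 61 reads for CTR and 86 for p63. Its pileup ratio of 1.41 was the only 1 of the 35 shared pairs with an interval above 1, which 5.81% of all shared pairs had. Its fold enrichment was 10.3 and 10.4. A p63-only region (69685832 to 69686297) lay further out between genes, with 21 reads against 13.

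CCND2 (ENSG00000118971.9, chromosome 12, 4269771 to 4305353, plus strand) encodes cyclin D2. Neither list held a deposited peak at its canonical start. The p63-only region at 4276856 to 4277327 lay in an intron of CCND2, 1524 bp from an annotated start. It had 20 reads and a fold enrichment of 8.78 in the p63 list, and 15 reads and 6.15 in the CTR list. Its summit window held a CTCF match without a mismatch, like the CTR-only window of CCND1. The 2 shared regions counted for CCND2 lay by different annotated starts of TIGAR, with CTR summits 261 bp and 15 bp away. Their fold enrichments were 12.6 and 11.0 in the CTR list and 11.8 and 11.9 in the p63 list.

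CCNE1 (ENSG00000105173.14, chromosome 19, 29811991 to 29824312, plus strand), which encodes cyclin E1, held 2 shared regions and no list-only region. Its start (29811397 to 29812279) had 42 reads in each list and a fold enrichment of 10.4 and 11.4. A region 23576 bp from the nearest TSS (29844281 to 29845821), between genes, had the higher −log10 q of 45.2 and 45.4.

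RB1 (ENSG00000139687.16, chromosome 13, 48303744 to 48599436, plus strand) is the longest of the genes and had 8 regions in each list, 7 of them shared. Its start (48303136 to 48304480) had a fold enrichment of 12.1 for CTR and 11.1 for p63. The highest −log10 q at any of the 10 genes, 68.8 and 90.5, belonged to a region at a start of RCBTB2 (48532253 to 48533351). This region lay within the annotated span of RB1. Its CTR summit was 229113 bp from the canonical RB1 start and 112 bp from an RCBTB2 start. An intronic region at 48400424 to 48401335 had the highest ratio of the shared pairs, a log2 value of 0.46 at the 93.5th percentile. It had 31 reads for CTR and 42 for p63, and the interval of that ratio, 1.35 (0.83 to 2.23), held 1.

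Each list held 1 list-only region of RB1. The CTR-only region (48478463 to 48478856) lay in an intron 2160 bp from an annotated RB1 start, with 18 reads against 10. The p63-only region (48413082 to 48413293) lay 64 bp from the start of LPAR6, a gene within an RB1 intron, with 15 reads against 12. Both differences were within the counting error of the pileup.

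TERT (ENSG00000164362.21, chromosome 5, 1253147 to 1295068, minus strand) had 1 region in the CTR list, the fewest of the genes there, and 3 in the p63 list, from 3 deposited peaks in each. No peak covered its canonical start. The region nearest to it was p63-only and spanned 1293652 to 1294870, with its summit in coding exon 2. It had 28 reads, a −log10 q of 16.1 and a fold enrichment of 7.36 in the p63 list, and 18 reads, 7.39 and 4.92 in the CTR list. The pileup ratio was 1.56 (0.83 to 2.99), so that this region was listed as p63-only by the threshold while its pileups did not differ beyond counting error.

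The second p63-only region of TERT, at 1239442 to 1239818 in an intron of SLC6A18, was the 1 without a CTR peak. It lay outside the TERT gene body, 55432 bp from the canonical TERT start. It was counted for TERT through a non-canonical start 24898 bp away. It had 20 reads, a −log10 q of 13.6 and a fold enrichment of 8.05. The shared region of TERT lay upstream of the gene, in an intron of CLPTM1L (1326632 to 1328703), with a fold enrichment of 6.80 for CTR and 7.49 for p63. This region held 38 matches to the TEAD letters, and 35 of the 37 gaps between neighbouring matches were whole multiples of 29 bp. The summits of the lists were 670 bp apart within this tandem repeat. How reads that fit several copies were placed is not given in the sources used here, so the height of this region is uncertain.

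A gene was called open at its canonical start when a region covered that start or had its summit within 1 kb of it. At the canonical start, 7 of the 10 genes were open in both lists, and the same 3 genes, CDKN1C, CCND2 and TERT, were open in neither. Over all protein-coding genes, 59.1% were open at the canonical start for CTR and 59.3% for p63. By this measure no start of the 10 genes was open in 1 list alone, but the p63-only region of TERT, with its summit 1089 bp from the canonical start, missed the distance of 1 kb narrowly.

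**Figure D4:**
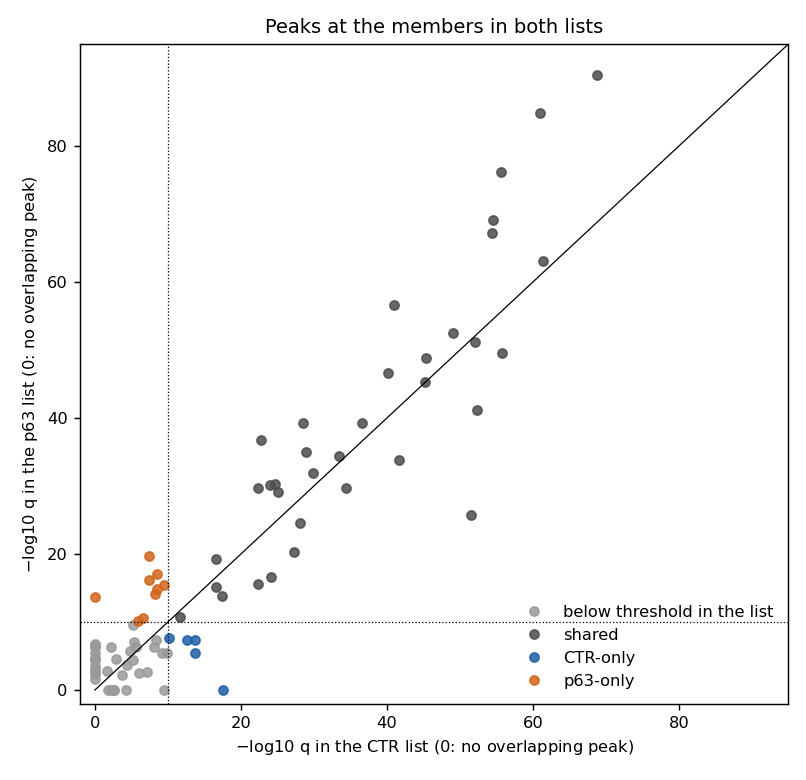
The −log10 q of each peak at the genes in the CTR list (x axis) and the p63 list (y axis), with 0 for no overlapping peak, the threshold of 10 dotted and a line where both values are equal. The strong regions follow the line, and the list-only regions lie close to the threshold, with those absent from the other list at 0.

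The shared pairs of the genes were spread around equal values. The median log2 ratio of fold enrichment was 0.11 over the 35 pairs and 0.05 over all 47341 pairs, with a range of −0.56 to 0.46 at the genes. Of the 35 pairs, 20 lay above the median of all pairs. The median log2 ratio of the summit pileup was 0.02 at the genes and 0.01 over all pairs. The −log10 q was higher in the p63 list in 22 of 35 pairs, 62.9%, and in 55.5% of all pairs. The regions of the genes had the higher median values in both lists, with a median −log10 q of 29.4 and 30.2 against 22.58 and 23.05 over all regions, and a median width of 731 bp and 700 bp against 575 bp and 542 bp.

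**Figure D5:**
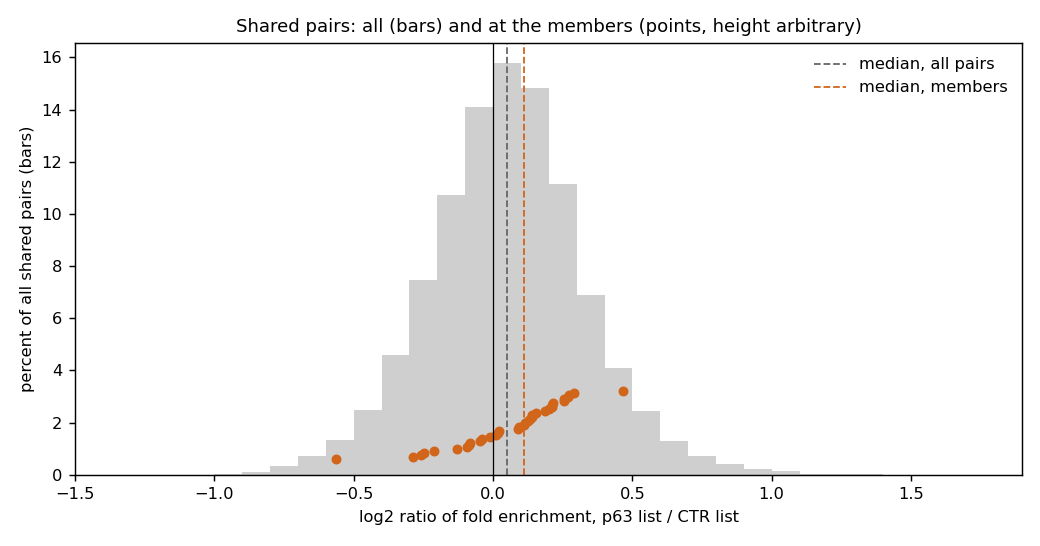
Log2 ratio of fold enrichment, p63 list over CTR list, for all 47341 shared pairs (bars, percent of pairs) and for the 35 pairs at the genes (points, at arbitrary height), with both medians dashed. The points run from the region upstream of the canonical CDKN1B start at −0.56, in the left tail of the bars, to the RB1 intron at 0.46.

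Sequence within 100 bp of each summit was searched on both strands. The p63 site was searched as the 20 bp site of the p53 family with at most 3 mismatches at 16 positions. None of the 40 CTR regions and none of the 9 p63-only regions of the genes held 1, which allows a share of up to 29.9% of p63-only regions (Wilson upper bound), and 11.4% of all p63-only regions did. In the p63 list 1 of 44 regions held a site, 2.27% (0.402 to 11.8), against 3.78% of all p63 regions. It lay at the CDKN1B start (12717137 to 12717156), had 3 mismatches and belonged to a region that was open in both lists. The CTR region there spans the site as well, but its summit at 12717275 was more than 100 bp away. The counts of the lists thus differ here by the place of the summit and not by the sequence.

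Both other p63 sites lay in weak peaks that were found in the p63 list alone but did not reach the threshold. The peak within the annotated RB1 span (48579071 to 48579318) lay 275479 bp from the canonical RB1 start. It had 12 reads, a −log10 q of 6.82 and a fold enrichment of 5.72. The peak in CDKN2B-AS1 (22037346 to 22037496) had 13 reads, 4.59 and 4.14. At the genes 16 peaks of the p63 list were below the threshold and had no CTR peak, and 2 of them, 12.5% (3.5 to 36), held a site, against 7.85% of all 22228 such peaks. Of the 10 peaks of the same kind in the CTR list at the genes, none held a site, against 0.486% of all such peaks.

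The other motifs were AP-1 (TGACTCA or TGAGTCA), KLF (GGGCGGGGC, GGGCGTGGC, GGGTGGGGC or GGGTGTGGC), TEAD (ACATTCCA, ACATTCCT, GCATTCCA or GCATTCCT), E2F (TTTCCCGC, TTTCGCGC, TTTGCCGC or TTTGGCGC) and CTCF with at most 1 mismatch. AP-1 matches were found in 5 of 40 CTR regions, 12.5% (5.46 to 26.1), and 4 of 44 p63 regions, 9.09% (3.59 to 21.2), against 26.9% and 25.4% of all regions. KLF matches were found in 4 CTR regions, 10% (3.96 to 23.1), and 7 p63 regions, 15.9% (7.93 to 29.4), against 7.4% and 7.14% of all regions. The CCNE1 start held 3 KLF matches around its CTR summit and none around the p63 summit of the same shared region. No E2F match lay in any region of the genes, against 1.21% and 1.11% of all regions. TEAD matches were found in 4 CTR regions, 10%, and 5 p63 regions, 11.4%, of the genes, against 8.9% and 8.24% of all regions. CTCF matches were found in 2 regions of each list, 5% and 4.55%, against 9.78% and 8.4% of all regions. A match describes letters and is not a measured binding site.

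The 30 other genes of the pathway ranged from further inhibitors, cyclins and CDKs to E2F factors, telomerase subunits and shelterin. Of their 178 CTR regions 22 were CTR-only, 12.4%, and of their 184 p63 regions 28 were p63-only, 15.2%. All but CCNA1 and CDK6, 28 of 30 or 93.3%, were open at the canonical start in both lists, against 70% of the 10 genes. CTR-only regions lay at 14 and p63-only regions at 18 of the 30 genes, 46.7% and 60%. Over all protein-coding genes these shares were 41.9% and 58.2%. CDKN1A, the CIP/KIP inhibitor p21 and a known p53 family target, had 6 shared regions and 2 p63-only regions, and both of these were absent from the CTR list. Over all 30 genes 10 of the 28 p63-only regions, 35.7% (20.7 to 54.2), were absent from the CTR list, and 7 of the 22 CTR-only regions, 31.8% (16.4 to 52.7), were absent from the p63 list. Over the whole lists these shares were 50% and 20%, both inside the intervals.

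The thresholds of the rule left these values at their edges. In the CTR list the region with the lowest −log10 q had 10.1, at CDKN1B, and the highest peak left out had 9.91, at RB1. In the p63 list these were 10.2, at CDKN1C, and 9.54, at RB1. The nearest regions outside 50 kb were 50096 bp and 50065 bp from a TERT TSS.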

How the data were processed

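The authors applied ATAC-seq to BJ cells expressing KLF4 alone (CTR) or ΔNp63α and KLF4 (p63), with 2 replicates per group. Per the submitters' processing notes and the study's methods, the authors mapped reads to hg38 with Bowtie2 2.3.4.3 and called peaks with MACS2 from the replicates of a group. The MACS2 version and options are not given in the sources used here. Each deposited peak has a fold enrichment, its p-value and q-value as −log10 and a summit offset in bp. The fold enrichment is the ratio of the summit pileup to the background nearby, with the same small constant added to each. These deposited scores belong to the authors' peak caller and were used to rank and filter peaks. The read depth per sample is unknown.

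Peaks on chromosomes 1 to 22, X and Y were assigned to genes of GENCODE release 44 and matched between lists by 1 bp of overlap with python 3.11.15, numpy 2.4.6, pandas 2.3.3 and pysam 0.24.0 for sequence. Pileups were solved from fold enrichment and −log10 p, and were whole (tolerance 0.001) for 99.99% of peaks. Ratios have exact binomial 95% intervals and shares Wilson intervals from scipy 1.17.1. The code was tested on simulated data. The rule named all 10 genes, every list-only region, every region at a canonical start, the 3 highest and 3 lowest pairs, each gene's strongest region and every p63 site. The genes, lists and rules were chosen with earlier results of these data known.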

Additional observations from a re-analysis of the deposited data

How the results depend on the processing

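Each value was recomputed with one choice changed. Of 109 recomputed values 82 stayed near the reported one and 27 moved. Near means within 1.5 times for counts, and within the binomial interval for shares and for the difference of medians. Only the difference of medians could change sign, and it did not. Without a threshold the lists held 75 and 83 peaks, 11 and 17 of them list-only, and 2 p63-only peaks had a p63 site. With a −log10 q of 20 or more, 29 p63 regions were left, 2 CTR-only and 0 p63-only, at 2 and 0 genes, with 100% of p63 regions shared. A window of 10 kb held 24 and 25 regions, of which 2 and 3 were list-only, at 2 and 3 genes, and a window of 100 kb held 66 and 71, of which 9 and 14 were list-only. When any deposited peak of the other list counted as overlap, 1 CTR-only and 1 p63-only region remained, at 1 gene each, and 97.5% and 97.73% were shared. Other TSS definitions, mutual overlap of 50%, equal numbers of peaks, merged peaks and other mismatch limits moved no value past these bounds. Leaving out the TERT regions, chosen after seeing the data, gave 7 p63-only regions at 5 genes. With the summit pileup the members' median log2 ratio was 0.01 above that of all pairs, against 0.06 with fold enrichment.

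No paired analysis was possible because the authors deposited 1 peak list per group. Leaving out each replicate was not run for the same reason, and the agreement of the replicates is therefore not known. The list-only calls rest on 15 to 43 reads at the summit, and the differences of all but 1 of the 12 with a weaker partner lay within counting error. The scores of the same peaks sorted these regions, so the intervals are no separate test of the calls.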
